A study of Mus musculus with 6 samples.

Results

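The apolipoprotein L family of the mouse was followed here in hematopoietic stem cells (HSCs) that had or lacked interferon regulatory factor 1 (IRF1). Its 10 members, *Apol6*, *Apol7a*, *Apol7b*, *Apol7c*, *Apol7e*, *Apol8*, *Apol9a*, *Apol9b*, *Apol10a*, and *Apol10b*, were taken by symbol from a table of 26264 genes. The family was picked on the measured values of the comparison described below, for the near-complete loss of *Apol7e*, so that differences between genotypes are given for its members as a description and with no *P* value, and calls of members are counted only beside those of all genes. Of the 10 members, 7 had a mean of at least 10 normalized counts over all libraries and entered the fit across genes, whereas *Apol7a*, *Apol7b*, and *Apol7c* did not.

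Bulk RNA-seq was performed on HSCs sorted from the bone marrow of untreated female mice 8 weeks of age, 3 wild type (WT; C57Bl/6) and 3 *Irf1-/-* (whole-body knockout, strain B6.129S2-*Irf1 tm1Mak*/J), with 1 library per mouse. Effects of the allele and of the strain background cannot be told apart. Libraries carry the replicate numbers 2, 3, and 4 in each genotype. The deposited values are normalized counts, that is, reads per gene divided by 1 size factor per library, and the reads behind them could be recovered. Between 43267486 and 59658080 reads were counted on genes in WT libraries and between 43138521 and 57281017 in *Irf1-/-* libraries.

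Apolipoprotein L proteins are named after a secreted human relative that travels with high-density lipoprotein and kills trypanosomes, but most of them stay inside the cell, where they associate with membranes and resemble, in part, the proteins of the BCL2 family. Many members are induced by interferons, and the mouse branch of the family has grown by repeated gene duplication on 1 chromosome. IRF1 is a transcription factor downstream of interferon receptors that binds IRF elements in promoters.

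The labels were first checked against the targeted gene. *Irf1* had 10122, 11120, and 12057.5 normalized counts in WT replicates 2, 3, and 4 and 9267, 9524, and 9287 in the corresponding *Irf1-/-* replicates. All *Irf1-/-* values lay below all WT values, but reads on the gene were still counted in *Irf1-/-* HSCs, at 84.3% of the WT mean, so that the level of this transcript does not by itself check the labels. The paper reports less MHC class II protein on the surface of *Irf1-/-* HSCs and, from this same RNA-seq, lower *H2-Aa* transcript. In the libraries labeled *Irf1-/-*, the transcript of the MHC class II chain *H2-Aa* had a mean of 2.69% of its WT mean. *H2-Aa* is named here as one of the 5 genes most like *Apol7e*, so it was not chosen apart from these values. All 8 HSC markers examined passed the filter, and the most abundant of them, *Kit*, ranged from 77902 to 88715 normalized counts over the 6 libraries. None of the 8 was called different between genotypes in limma, edgeR, or DESeq2, with 5 at an unadjusted *P* under 0.05 in limma, beside 2863 of all 17404 tested genes (16.5%). *Procr* (log2 fold change 0.52, adjusted *P* = 0.0112, limma) and *Ly6a* (−0.43, adjusted *P* = 0.0245, limma) passed the threshold on the adjusted *P* and not that on the fold change, and *Procr* was called higher without WT replicate 2 (0.58).

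Libraries were uneven in markers of other cells. The 6 markers of neutrophils and granulocyte progenitors summed to 347, 313, and 5177 normalized counts in WT replicates 2, 3, and 4 and to 443, 449, and 790 in *Irf1-/-* replicates 2, 3, and 4. The most abundant of them, *Ngp*, had 2535 normalized counts in WT replicate 4 and at most 127 in any other library. *Ly6g* had 43 reads in WT replicate 4, 1 read in *Irf1-/-* replicate 2, and 0 in the other 4 libraries. Of the 6 markers, 4 (*Ly6g*, *Ngp*, *S100a8*, and *S100a9*) were highest in WT replicate 4, whereas the progenitor markers *Elane* (67.5 against 64.5 normalized counts in WT replicate 4) and *Mpo* (355 against 253) were highest in *Irf1-/-* replicate 4. Of these 6 markers 5 were tested, and 0 were called in limma, edgeR, or DESeq2, with 0 at an unadjusted *P* under 0.05 in limma and 3 in edgeR, where 16.7% of all tested genes were. The median log2 fold change of the list was −0.49 in limma, −2.60 in edgeR and DESeq2, and −1.64 in limma without WT replicate 3. Without WT replicate 4 this median moved to 1.30 in limma, and *Ngp* was called higher (1.67, adjusted *P* = 0.0449, limma, from 0.0449 to 0.973 with 1 library left out). The HSC sort takes lineage-negative cells, and how far it removed neutrophils was not tested. The monocyte marker *Ly6c2* had 808 normalized counts in WT replicate 3 against 2.47 and 60.2 in WT replicates 2 and 4 and 168, 181, and 3.11 in *Irf1-/-* replicates 2, 3, and 4. The 8 macrophage and monocyte markers, of which *Cd68* was the most abundant and none was at 0 in all libraries, summed to 1863, 3026, and 2306 normalized counts in WT replicates 2, 3, and 4 and to 2667, 2171, and 2326 in *Irf1-/-* replicates 2, 3, and 4. WT replicate 3 had the highest sum through *Ly6c2*, since the other 7 markers summed to 1861, 2218, and 2246 in WT replicates 2, 3, and 4 and to 2499, 1990, and 2323 in *Irf1-/-* replicates 2, 3, and 4. Of the 8 markers, 4 (*C1qa*, *Ccr2*, *Csf1r*, and *Ly6c2*) were highest in WT replicate 3, and *Cd68* was lowest in it (561). Values of the members are therefore also given without WT replicate 4 and without WT replicate 3. Of the other marker lists, 1 of 8 dendritic cell markers was called higher in limma (*Flt3*), beside 0.96% of all tested genes. Of 2 tested erythroid markers, 1 was called lower (*Klf1*), beside 0.954% of all tested genes, and *Hba-a1* and *Hbb-bs* were at 0 in all libraries. *Flt3* was not called without WT replicate 3 or without any one *Irf1-/-* replicate (limma, adjusted *P* up to 0.127), nor without limma's intensity trend (0.358), and *Klf1* was not called without WT replicate 2 or 3 or *Irf1-/-* replicate 2 or 3 (limma, adjusted *P* up to 0.117), nor without the trend (0.316). Of 8 macrophage and monocyte, 4 B cell, and 4 T and NK cell markers tested, 0 were called in limma, edgeR, or DESeq2, with 0 at an unadjusted *P* under 0.05 in limma, and of 4 endothelial markers 0 were called by these tools, with 3 at that *P* (16.5% over all genes), and *Kdr* was called higher without WT replicate 4 (0.83, adjusted *P* = 0.0155, limma) and with the replicate number as a block. In bulk RNA, fewer cells of a type and less RNA per cell cannot be told apart, and this holds for each level given here.

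*Apol7e* was the member that differed most between genotypes. In WT HSCs it had 674, 886, and 945 normalized counts in replicates 2, 3, and 4. In *Irf1-/-* HSCs it had 2.13 normalized counts in replicate 2 and 0 in replicates 3 and 4. All WT libraries were thus high and all *Irf1-/-* libraries were at or near 0, with no overlap.

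The WT mean was 835 ± 142 (SD, *n* = 3) and the *Irf1-/-* mean 0.0851% of it. Behind these values stood 2483 reads in WT HSCs, with 786 or more in each library, against 2 reads in all *Irf1-/-* libraries together. The ratio of WT to *Irf1-/-* reads per unit of depth was 1252, with an exact 95% binomial interval from 346 to 10347. This interval and those that follow treat the pooled reads of each genotype as independent and cover counting error only. They leave out the spread between mice, and libraries of the same genotype differed beyond counting noise. The libraries also carried no molecular identifiers, so copies made by PCR count as reads and even counting error may be understated. On the log2(normalized count + 1) scale, which understates differences near 0, the difference of *Irf1-/-* from WT was −9.14 (SE 0.544), the first in order of size among the negative differences of the 17404 tested genes. Without WT replicate 4 it was −9.05, and without WT replicate 3 −9.09.

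*Apol9b* and *Apol9a* encode a pair of near-identical, interferon-inducible proteins for which antiviral activity and binding to prohibitins have been described. *Apol9b* had 193, 113, and 140 normalized counts in WT replicates 2, 3, and 4 and 13.9, 9.51, and 4.15 in *Irf1-/-* replicates 2, 3, and 4. The lowest WT value lay far above the highest *Irf1-/-* value, and transcripts were still counted in every *Irf1-/-* library. The mean left in *Irf1-/-* HSCs was 6.17% of that in WT HSCs, with 465 WT reads against 28 and a ratio per unit of depth of 16.8 (95% interval 11.4 to 25.5). The log2 difference was −3.97 (SE 0.516), at place 10 in the same order, −4.00 without WT replicate 4, and −4.15 without WT replicate 3.

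*Apol9a* had 58.4, 104, and 112 normalized counts in WT replicates 2, 3, and 4 and 23.5, 26.8, and 20.8 in *Irf1-/-* replicates 2, 3, and 4. WT replicate 2 was the low WT library, yet it remained above all *Irf1-/-* libraries, which lay close together. Of the WT mean, 25.9% was left in *Irf1-/-* HSCs, more than for *Apol9b*, with 267 WT reads against 73 and a ratio of 3.69 (95% interval 2.84 to 4.85). The log2 difference was −1.86 (SE 0.432), at place 73, −1.68 without WT replicate 4, and −1.74 without WT replicate 3.

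Because reads of this pair may be divided between the copies, they were also summed. *Apol9a* and *Apol9b* together had 252, 216, and 252 normalized counts in WT replicates 2, 3, and 4 and 37.3, 36.3, and 24.9 in *Irf1-/-* replicates 2, 3, and 4. The sum did not overlap between genotypes, and its *Irf1-/-* mean was 13.7% of the WT mean. The sum varied less among WT mice than either copy did, with a coefficient of variation of 8.52% against 31.5% for *Apol9a* and 27.6% for *Apol9b*. *Apol9a* took 23.2%, 47.9%, and 44.4% of the sum in WT replicates 2, 3, and 4 and 62.9%, 73.8%, and 83.3% in *Irf1-/-* replicates 2, 3, and 4. The copy that made up the smaller part of the pair in every WT library was thus the larger part in every *Irf1-/-* library.

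*Apol7b* is the closest copy of *Apol7e*, and its low counts followed the same division. It had 7.41, 7.89, and 6.45 normalized counts in WT replicates 2, 3, and 4 and 0 in each *Irf1-/-* library. With 22 reads against 0, and the floor of 3 reads over the *Irf1-/-* group in place of 0, it was at least 7.40-fold lower in *Irf1-/-* HSCs. Whether these 22 reads came from *Apol7b* or from *Apol7e* was not tested.

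*Apol7c*, by contrast, rested on a single library. Its normalized counts were 1.65, 1.13, and 21.5 in WT replicates 2, 3, and 4 and 0, 0, and 2.08 in *Irf1-/-* replicates 2, 3, and 4. Only WT replicate 4 was high, with 20 of the 23 WT reads, and the genotypes overlapped. The same library held the highest values of *Itgax* (49.5 normalized counts), *Xcr1* (46.3), and *Siglech* (69.9) among 8 dendritic cell markers, whereas the other 5 (*Zbtb46*, *Cd209a*, *Clec9a*, *Batf3*, and *Flt3*) were highest in other libraries. The sum of the 8 was 3054, 2116, and 3439 in WT replicates 2, 3, and 4 and 3973, 4787, and 3775 in *Irf1-/-* replicates 2, 3, and 4. The most abundant gene of that list was *Flt3*, and no marker of it was at 0 in all libraries. Without *Flt3* the other 7 summed to 397, 387, and 574 in the WT and 531, 311, and 315 in the *Irf1-/-* libraries, which overlapped. Of the 8, 6 had negative log2 fold changes, and the median was −0.43, but −0.13 over the 7 tested without WT replicate 4. The part of dendritic cells, or of the neutrophil markers in WT replicate 4, in the *Apol7c* value was not tested. The HSC sort takes lineage-negative, Kit-positive cells, and how far it removed dendritic cells and neutrophils was not tested. *Apol7a* had 0 reads in WT HSCs and 4 in *Irf1-/-* HSCs, which is too few for a fold difference.

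The other 4 members that entered the fit were low in both genotypes, and each of them overlapped between genotypes. *Apol10b* had 22.2, 38.3, and 51.6 normalized counts in WT replicates 2, 3, and 4 and 19.2, 27.7, and 17.6 in *Irf1-/-* replicates 2, 3, and 4. *Apol8* had 37.9, 53.0, and 33.3 in the WT and 39.4, 17.3, and 28.0 in the *Irf1-/-* libraries. *Apol8* was thus as high in *Irf1-/-* replicate 2 as in WT replicate 2.

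*Apol6*, whose human counterpart has been linked to apoptosis, had 22.2, 23.7, and 46.3 normalized counts in the WT and 8.53, 14.7, and 44.6 in the *Irf1-/-* libraries. Replicate 4 was the high library in both genotypes. The span of *Apol6* shares 5619 bases with that of *Mb* in the reference gene table (GRCm38.p6), and *Mb* had between 4.11 and 25.8 normalized counts, so that reads of the overlap could have gone to either gene. *Apol10a* had 4.11, 21.4, and 21.5 normalized counts in the WT and 6.40, 4.32, and 12.5 in the *Irf1-/-* libraries. WT replicate 2 had the lowest normalized count of all 6 libraries, from 5 reads against 6, 5, and 12 in *Irf1-/-* replicates 2, 3, and 4. The log2 differences of these 4 members were −0.58 for *Apol8*, −0.66 for *Apol6*, −0.72 for *Apol10b*, and −0.76 for *Apol10a*. Their SEs were 0.499, 0.659, 0.533, and 0.846 in the same order. Without WT replicate 4 they were −0.34 for *Apol6* and −0.45 for *Apol10b*, closer to 0, and −0.72 for *Apol8*, and *Apol10a* no longer passed the filter. Without WT replicate 3 they were −0.80 for *Apol6*, −0.39 for *Apol8*, and −0.66 for *Apol10b*, and *Apol10a* again did not pass the filter. Leaving out other single libraries also moved them. *Apol6* was at −1.30 when *Irf1-/-* replicate 4 was left out and at −0.17 when *Irf1-/-* replicate 2 was, and *Apol8* was at −0.85 when *Irf1-/-* replicate 2 was left out and at −0.28 when *Irf1-/-* replicate 3 was. The range was from −1.04 (without WT replicate 2) to −0.45 for *Apol10b* and, where it passed the filter, from −1.47 (without WT replicate 2) to −0.46 (without *Irf1-/-* replicate 3) for *Apol10a*.

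**Figure D1:**
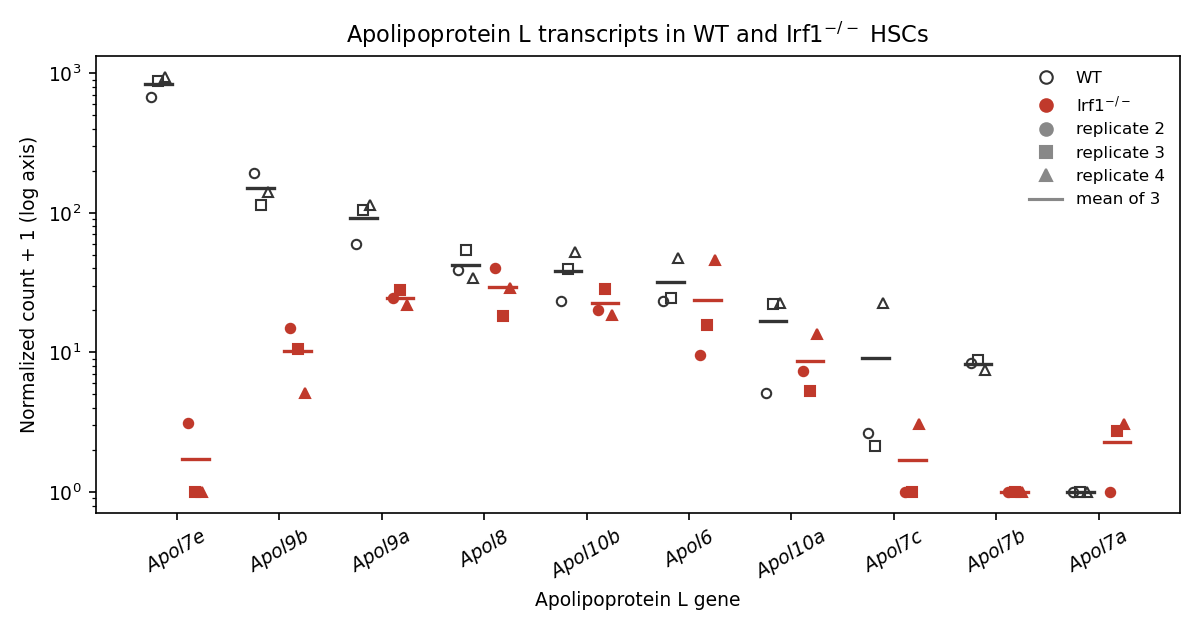
Normalized count plus 1 (log axis) of each apolipoprotein L gene (horizontal axis) in the 3 WT (open symbols) and 3 *Irf1-/-* (filled symbols) libraries, with the replicate number given by the shape and the mean of 3 by a line. *Apol7e* lies between 674 and 945 normalized counts in WT and at or under 2.13 in *Irf1-/-* libraries, *Apol9b* and *Apol9a* are separated by genotype, and *Apol8*, *Apol10b*, *Apol6*, and *Apol10a* overlap.

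Genotypes were compared with limma across the tested genes. A call required a log2 fold change beyond 0.58 in either direction together with an adjusted *P* below 0.05. Of the 7 members that entered the fit, 3 (*Apol7e*, *Apol9b*, and *Apol9a*) were called lower, beside 166 of 17404 genes in all (0.954%), and 0 were called higher, beside 167 genes (0.96%). edgeR also called 3 members lower, beside 161 of 17362 genes (0.927%), and 0 higher, beside 162 (0.933%). DESeq2 called 3 members lower, beside 209 of the 13094 genes to which it gave an adjusted *P* (1.6%), and 0 higher, beside 295 (2.25%). All 3 *Irf1-/-* libraries lay below all 3 WT libraries for 3 of these 7 members and for 1614 of the tested genes (9.27%). The family was picked on this comparison, so nothing is read from these counts.

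All 7 log2 differences were negative, with a median of −0.76, that of *Apol10a*, beside −0.003 over the tested genes. However, a member that passed the filter through its WT level alone had to differ. The *Irf1-/-* means of *Apol7e* (0.711), *Apol9b* (9.17), and *Apol10a* (7.72) were below the 10 normalized counts of the filter. *Apol9a* was not called without WT replicate 3 or 4, without *Irf1-/-* replicate 2 or 4, or without the filter on low values. *Apol9b* and *Apol9a* were not called when limma was fitted without its intensity trend, and *Apol7b* was called lower when no filter was applied.

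The family as a whole was carried by *Apol7e* in WT HSCs. The 10 members summed to 1021, 1248, and 1377 normalized counts in WT replicates 2, 3, and 4 and to 113, 102, and 132 in *Irf1-/-* replicates 2, 3, and 4. The *Irf1-/-* mean of the sum was 9.51% of the WT mean. *Apol7e* alone held 66.0%, 71.0%, and 68.6% of the family's counts in the WT libraries and 1.89%, 0%, and 0% in the *Irf1-/-* libraries. No single member dominated in *Irf1-/-* HSCs, where *Apol8* held the largest share in replicate 2 (34.9%), *Apol10b* in replicate 3 (27.1%), and *Apol6* in replicate 4 (33.9%).

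Without *Apol7e*, the *Irf1-/-* mean of the other 9 members was 30.2% of the WT mean, with no overlap between genotypes. Without *Apol9a* and *Apol9b* as well, the remaining 7 members summed to 95.5, 145, and 181 normalized counts in the WT and 73.6, 65.7, and 107 in the *Irf1-/-* libraries. These sums overlapped, at 58.4% of the WT mean. Among these 7, *Apol7b* alone did not overlap, and neither did the sum of *Apol7a*, *Apol7b*, and *Apol7c*, at 9.05, 9.02, and 28.0 normalized counts in the WT and 0, 1.73, and 4.15 in the *Irf1-/-* libraries.

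Levels were compared between members per kilobase of exon, with lengths from an older annotation (GENCODE vM1) that covered 14660 of the 17404 tested genes (84.2%). In WT HSCs *Apol7e* had the highest level, 374 ± 63.8 normalized counts per kb (SD, *n* = 3), above that of 55.4% of the tested genes with a length and above their median of 268. *Apol9b* had 93.3 ± 25.8 and *Apol9a* 59.1 ± 18.6 normalized counts per kb, and their libraries overlapped. *Apol7e* was thus a gene of middle abundance, and the *Apol9* pair lay in the lower part of the range.

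*Apol10b* (18.8 ± 7.42 normalized counts per kb) and *Apol8* (15.4 ± 3.83) followed and could not be separated beyond their spread. Nor could *Apol6* (6.83 ± 3.00), *Apol10a* (4.79 ± 3.06), and *Apol7c* (3.96 ± 5.69) from one another, and the libraries of *Apol7b* (3.00 ± 0.302) lay within the range of *Apol10a*. *Apol7a* was at 0 in WT HSCs. In *Irf1-/-* HSCs the highest means were those of *Apol9a* (15.3 ± 1.95 normalized counts per kb), *Apol10b* (10.8 ± 2.71), and *Apol8* (10.5 ± 4.13). Their libraries overlapped, with *Apol9a* from 13.4 to 17.3, *Apol10b* up to 13.9, and *Apol8* up to 14.7 normalized counts per kb, so that these 3 were not ordered beyond their spread.

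How far reads can be told apart between members was examined in their reference transcripts. *Apol7b* and *Apol7e* were identical at 98.9% of aligned coding bases, with 12 of 1110 bases differing, and *Apol9a* and *Apol9b* at 98.5%, with 14 of 933 differing. The next closest pair was *Apol7a* and *Apol7c* (90.8%), and the most distant was *Apol9a* and *Apol10a* (59.4%). Of all 100-base windows of the *Apol7e* transcript, about the length of a sequenced fragment end, 57.8% also occurred in another transcript, and 1211 of these windows were shared with *Apol7b*. For *Apol9a* and *Apol9b* the share was 35.5%, for *Apol7b* it was 57.4%, and for each of the remaining 6 members it was at most 4.06%. Values of *Apol7b* apart from *Apol7e*, and of *Apol9a* apart from *Apol9b*, are therefore uncertain. In *Irf1-/-* HSCs, where *Apol7e* reads were nearly absent, *Apol7b* had 0 reads as well. This is not a separate observation, since the WT reads of *Apol7b* may be those of *Apol7e*.

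**Figure D2:**
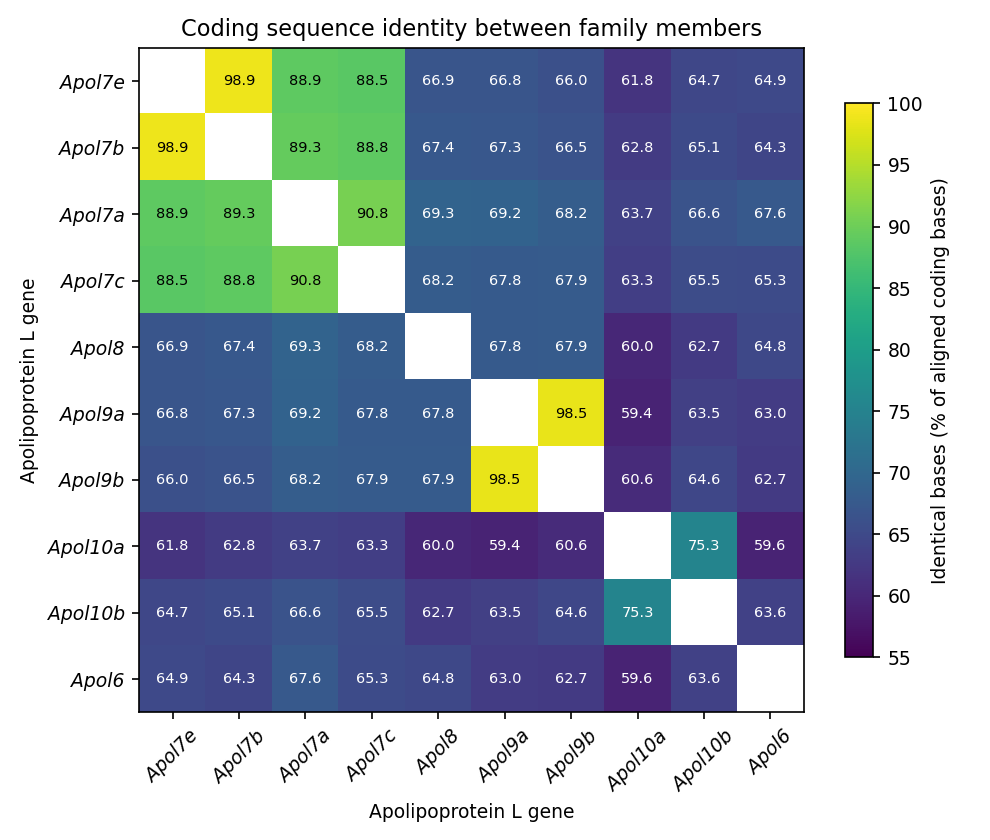
Identical bases, as a percent of aligned coding bases (color scale and cell labels), between each pair of apolipoprotein L genes (both axes). *Apol7e* with *Apol7b* (98.9%) and *Apol9a* with *Apol9b* (98.5%) are the near-identical pairs, the other pairs of *Apol7* genes lie between 88.5% and 90.8%, and the remaining pairs are at 75.3% or lower.

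The members lie on chromosome 15. In the reference gene order (GRCm38.p6), *Apol6* stands apart from the rest, after *Mb*, with which it overlaps, and before *Rbfox2*, and the other 9 members, with *Apol11a* and *Apol11b*, form a cluster between *Rbfox2* and *Myh9* in the order *Apol7a*, *Apol9a*, *Apol7b*, *Apol10a*, *Apol11a*, *Apol7c*, *Apol10b*, *Apol11b*, *Apol7e*, *Apol9b*, *Apol8*. *Apol9a* thus stands near one end and *Apol7e* and *Apol9b* side by side near the other, with *Apol10a*, *Apol7c*, and *Apol10b*, whose libraries overlapped between genotypes, and *Apol7b*, whose low counts did not, in the stretch between them. Of 11 flanking genes 10 were tested and 0 were called in limma, edgeR, or DESeq2, with 2 at an unadjusted *P* under 0.05 in limma (16.5% over all genes) and a median log2 fold change of −0.03. *Myh9*, next to the cluster, encodes a nonmuscle myosin and differed by 0.05 on the log2 scale (SE 0.0935; limma, adjusted *P* = 0.876).

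Promoters were compared because 3 members of the cluster were called lower while *Apol10a* and *Apol10b*, between them, were not. RefSeq windows of 300 bases (GRCm38.p6), from 250 bases before to 50 after the start of the gene, were found for 9 of the 10 members, all but *Apol6*, with 2 windows each for *Apol9a* and *Apol9b*. The core of the IRF element was searched as GAAANNGAAA on both strands (TTTCNNTTTC on the other strand) and occurred in 3.44% of 32851 windows and in those of 3.99% of 27025 genes. It occurred in windows of 6 of the 9 members, *Apol7c*, *Apol7e*, *Apol9a*, *Apol9b*, *Apol10a*, and *Apol10b*, and not in those of *Apol7a*, *Apol7b*, and *Apol8*. Members with the core thus included the 3 that were called lower and *Apol10a* and *Apol10b*, which were not called. The GAS motif, an element of interferon-induced promoters, TTCNNNGAA, reads the same on both strands and occurred in 8.30% of windows and in those of 9.55% of genes. Of the 9 members, 1 held it, *Apol10a*. A match is a description of letters, not a site or a cause.

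The promoters of *Apol7e*, its near-identical copy *Apol7b*, and the more distant *Apol7c* are shown because *Apol7b* lacks the element that the other 2 hold. The stretches from RefSeq are *Apol7e*, chr15:77698802-77698888 (+ strand), *Apol7b*, chr15:77447461-77447542 (− strand), and *Apol7c*, chr15:77533335-77533427 (− strand), all GRCm38.p6, upstream of the gene start and written 5′ to 3′ along the gene, with matches to the core in capitals.
Apol7e: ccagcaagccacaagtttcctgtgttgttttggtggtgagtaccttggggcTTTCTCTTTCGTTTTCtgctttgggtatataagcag
Apol7b: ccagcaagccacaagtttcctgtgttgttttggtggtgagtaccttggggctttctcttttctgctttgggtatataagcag
Apol7c: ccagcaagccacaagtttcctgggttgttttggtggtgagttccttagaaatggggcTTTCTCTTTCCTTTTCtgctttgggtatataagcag
*Apol7e* held 2 overlapping matches, which began 36 and 30 bases before the start of the gene. The whole windows of *Apol7e* and *Apol7b* were identical at 293 of 295 aligned bases, and the *Apol7e* window had 5 bases within this run that *Apol7b* lacked, which left *Apol7b* with 0 matches. *Apol7c* also held 2 overlapping matches, although nearly all of its reads came from 1 library.

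The *Apol9* promoters are shown because the pair differed in how much transcript was left while both promoters held the element in the same letters. The stretches from RefSeq are *Apol9a*, chr15:77411104-77411169 (− strand), and *Apol9b*, chr15:77729005-77729070 (+ strand), both GRCm38.p6, with matches to the core in capitals.
Apol9a: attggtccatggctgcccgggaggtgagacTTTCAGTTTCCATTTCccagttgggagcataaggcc
Apol9b: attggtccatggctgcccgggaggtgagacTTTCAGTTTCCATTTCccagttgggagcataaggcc
Both held 2 overlapping matches, which began 59 and 53 bases before the start of the gene in the *Apol9a* window compared and 37 and 31 in that of *Apol9b*. In the other window of each gene they began 105 and 99 bases before the start for *Apol9a* and 86 and 80 for *Apol9b*. The windows compared were thus offset, and of their 300 bases 278 aligned, all of them identical. The *Irf1-/-* means, 25.9% of the WT mean for *Apol9a* and 6.17% for *Apol9b*, stood beside promoters that read the same where they aligned, with the reservation that reads may be divided between the copies.

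Likeness of pattern was measured between pairs of tested genes, with each value taken as a percent of the gene's WT mean. The measure was the mean absolute difference over the 6 libraries. The genes most like *Apol7e* were *Gm12250*, an immunity-related GTPase (mean difference 6.64 percentage points), *Slamf8*, a myeloid surface receptor (7.66), *H2-Aa*, an MHC class II chain (8.49), *Gbp10*, a guanylate-binding protein (9.22), and *Gm12185* (9.41). *Gm12250* had 3407, 4125, and 3535 normalized counts in the WT and 76.8, 94.2, and 30.1 in the *Irf1-/-* libraries. This closest gene kept 1.82% of its WT mean, against 0.0851% for *Apol7e*, for whose loss the family was picked. Among the members that entered the fit, *Apol7e* was nearer to *Apol9a* (18.5) and *Apol9b* (19.5) than to the rest. *Apol7b*, which did not enter it, was not compared in this way.

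The genes most like *Apol9b* were *Aspa* (8.89), *Zbp1*, a sensor of nucleic acids (11.3), and *Gm12185* (12.2). Those most like *Apol9a* were *Gm8909* (7.87), *Ciita*, the transactivator of MHC class II genes (8.10), and *Olfr59* (8.40). *Ciita* had 393, 611, and 638 normalized counts in the WT and 272, 170, and 163 in the *Irf1-/-* libraries, with WT replicate 2 the low WT library, as for *Apol9a*. Those most like *Apol8* were *Itga2b*, the platelet integrin chain (5.69), *Endod1* (5.94), and *Ubash3a* (6.05). For *Apol10a* they were *Sema4a* (9.93), *Krt76* (11.4), and *Klrk1* (11.4), for *Apol10b* *Oosp1* (8.11), *Kcng2* (8.28), and *Cbln4* (9.04), and for *Apol6* *Ccl2* (10.1) and *Pou3f4* (10.3).

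The family was set beside other gene groups in the same fit. Among 4 further apolipoprotein L genes, *Apol11b* had 95.8 normalized counts in WT replicate 3 and at most 2.15 in any other library, *Apol7d* had at most 3.23, and *Apol11a* at most 6.58. *Apold1*, an endothelial early-response gene that shares a domain with the family, had 37.0, 58.6, and 87.1 normalized counts in the WT and 43.7, 44.9, and 44.6 in the *Irf1-/-* libraries, which overlapped. Its log2 fold change was −0.36 (SE 0.427, adjusted *P* = 0.760, limma), and from −0.67 to −0.07 with 1 library left out.

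Apolipoproteins outside the family, most of which carry lipid in plasma, were a further comparison. Of 17 such genes 8 were tested and 0 were called in limma, with 1 at an unadjusted *P* under 0.05 (16.5% over all genes), and the median log2 fold change was 0.13. edgeR also called 0, and DESeq2 called 1 higher, beside 2.25% of the genes to which it gave an adjusted *P*. This was *Apobr*, a lipoprotein receptor (0.68, SE 0.199, adjusted *P* = 0.0857 in limma). *Apobr* was also called by limma with the replicate number as a block (adjusted *P* = 0.0428) and without WT replicate 4 or *Irf1-/-* replicate 3 (adjusted *P* from 0.0436 to 0.320 with 1 library left out). *Apoe*, the most abundant of them, had 60445, 65588, and 56895 normalized counts in the WT and 57863, 60009, and 78430 in the *Irf1-/-* libraries, with overlap (adjusted *P* = 0.793, limma).

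Guanylate-binding proteins and immunity-related GTPases are interferon-inducible families that attack the membranes of intracellular microbes. Of 11 guanylate-binding proteins 8 were called lower in limma, beside 0.954% of all tested genes, with a median log2 fold change of −1.33 (−0.003 over all), a range from −4.72 (*Gbp10*) to −0.42 (*Gbp7*), and 3 called without limma's intensity trend. *Gbp9* was not called without WT replicate 3 or 4 or *Irf1-/-* replicate 2 or 3 (limma, adjusted *P* up to 0.148) or after quantile normalization (0.0659), and *Gbp11* was not called without WT replicate 3 or *Irf1-/-* replicate 2 or 3 (limma, adjusted *P* up to 0.0883). *Gbp5* was called lower without *Irf1-/-* replicate 3 (−0.64, adjusted *P* = 0.0329, limma, from 0.0329 to 0.292 with 1 library left out). Of 9 immunity-related GTPases 8 were called lower, beside the same 0.954%, with a median of −1.15, a range from −5.91 (*Gm12250*) to −0.27 (*Irgm1*), and 5 called without the trend. *Irgm2* was not called without WT replicate 2 (−0.57) or *Irf1-/-* replicate 4 (−0.57), where it missed the threshold on the fold change. The difference of *Apol7e* (−9.14) was larger in size than that of any tested gene of these families. The apolipoprotein L family was picked for this difference, so nothing is read from that order. The IRF element core occurred in windows of all 5 guanylate-binding proteins that had one and of 6 of 7 immunity-related GTPases.

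**Figure D3:**
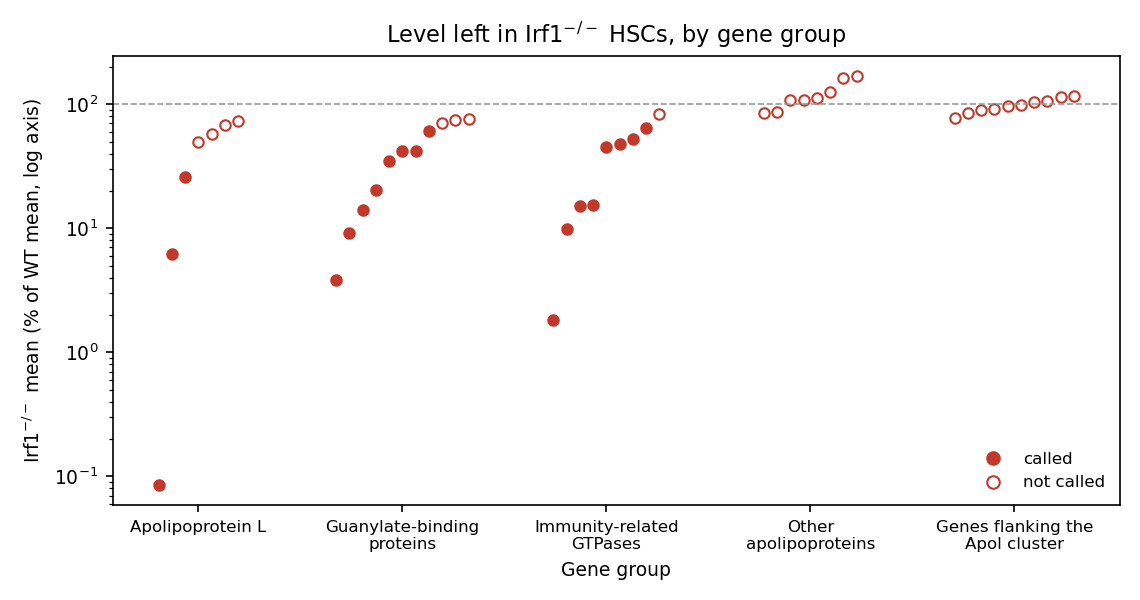
*Irf1-/-* mean as a percent of the WT mean (log axis) for the tested genes of 5 gene groups (horizontal axis), with filled circles for genes called in limma and a dashed line at 100%. *Apol7e* lies lowest at 0.0851%, and the genes flanking the cluster and the other apolipoproteins lie between 78.2% (*Mb*) and 168% (*Apoa1*) with 0 called in limma.

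Partner genes were described in the same way. Of 7 tested genes for prohibitins and autophagy proteins, described as partners of Apol9 proteins, 0 were called in limma, edgeR, or DESeq2, with 2 at an unadjusted *P* under 0.05 in limma (16.5% over all genes). *Phb* and *Phb2*, the prohibitins, had log2 fold changes of −0.32 (SE 0.107, adjusted *P* = 0.138, limma) and −0.24 (SE 0.0897, adjusted *P* = 0.188, limma). The prohibitins were thus at 80.4% and 84.9% of their WT means while the *Apol9* pair was at 13.7%.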

How the data were processed

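RNA-seq was performed on 3 WT and 3 *Irf1-/-* HSC samples, grouped by their labels. The authors amplified cDNA with the SMART-Seq v4 kit, made Nextera XT libraries, sequenced both fragment ends, and used Trim Galore! for trimming, HISAT2 for alignment (the submitters' processing notes name build mm39), and Htseq-count for counting on Galaxy. Program versions, annotation, and strand setting are not given in the sources used here, so reads of overlapping or near-identical genes may be assigned to either. The deposited values are a signal derived from counts, each gene's count divided by a DESeq2 size factor per library. All values (100%) were whole multiples of 1 read within 0.02 reads. Same-genotype libraries differed beyond counting noise (chi-square per gene 16.0 to 30.0).

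limma 3.58.1 in R 4.3.3 (lmFit, eBayes with trend) was run after a log2(normalized count + 1) transformation on genes that averaged at least 10, with Benjamini-Hochberg adjustment. edgeR 4.0.16 and DESeq2 1.42.0 on the recovered reads were alternatives, as were pseudocounts of 0.5 and 5, no filter, a mean of at least 50, no trend, quantile normalization, the replicate number as a block, and each library left out. edgeR called 161 genes lower and 162 higher. Where a group had 0 reads, a floor of 3 reads over the group was used.

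The members and gene lists were chosen with earlier results of these data known. Named genes are the members, *Irf1*, the genes of those lists and of the cell markers, the 5 genes most like *Apol7e*, and the 3 most like each other tested member. Results that rest on some genes covered by this rule are not reported here. Coding identity and exon lengths came from GENCODE vM1 transcripts (NCBIM37), 100-base windows from each member's transcript with the longest coding sequence, and promoters from RefSeq (GRCm38.p6), aligned with Biopython 1.88. Proteins were not analysed here, and coding bases were aligned in their place. Figures were drawn with matplotlib 3.10.9.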

Additional observations from a re-analysis of the deposited data

How the results depend on the processing

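The log2 differences of the 7 tested members kept their negative sign under all alternatives that gave a value. That of *Apol7e* ranged from −10.31 (DESeq2) to −7.21 (pseudocount 5) and remained called in all 15 alternatives, *Apol9b* from −4.31 to −3.47 with its call lost in 1, and *Apol9a* from −2.15 to −1.68 with its call lost in 6. *Apol6*, *Apol8*, and *Apol10b* were not called in any of 14 alternatives and *Apol10a* in any of 12. Without limma's intensity trend, 7 genes were called higher, 33 lower, and 1 member (*Apol7e*) lower. DESeq2 called 295 genes higher and 209 lower. Leaving out 1 library at a time gave between 83 (without *Irf1-/-* replicate 4) and 304 (without WT replicate 4) genes called higher and between 105 (without WT replicate 3) and 265 (without WT replicate 4) called lower. Genes called higher also numbered 102 without WT replicate 3 and 104 without *Irf1-/-* replicate 2. Members called lower numbered 2 or 3 and those called higher 0. *Apol9a* lost its call without WT replicate 3 (−1.74), WT replicate 4 (−1.68), *Irf1-/-* replicate 2 (−1.85), or *Irf1-/-* replicate 4 (−1.77), and also without the filter on low values, where *Apol7b* was called instead. The cause was not tested.

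With the replicate number as a replicate block, 219 genes were called higher, 196 lower, and 3 members lower. The deviations of same-numbered libraries correlated at −0.09, 0.25, and 0.15 for numbers 2, 3, and 4, and not every library correlated best with its own number, so the numbers were not taken to pair the mice. Depth limits *Apol7a*, *Apol7b*, and *Apol7c*, which had at most 23 reads in a genotype.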
